A study of Mus musculus with 12 samples.

Results

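The 9 genes described here encode transcription factors of the macrophage lineage: Spi1, Cebpa, Cebpb, Cebpd, Maf, Mitf, Pparg, Bhlhe40 and Bhlhe41. They were taken by name from the 32246 genes of a table of RNA levels, and all 9 passed the filter on low values (a level of 1 or more in 4 or more libraries). The libraries hold total RNA of macrophages grown from mouse bone marrow for 7 days with the growth factor GM-CSF at 50 ng/mL, which every group received. Cells of 1 group were left untreated, cells of another received PLG exposed to EACA for 24 h (PLG+EACA), and cells of the last received PLG exposed to EACA and RNases for 24 h (PLG+EACA+RNase), with 4 libraries in each group. PLG is read here as plasminogen, the precursor of the protease plasmin, and EACA is epsilon-aminocaproic acid, a lysine analogue that occupies the lysine-binding sites of plasminogen. The labels name neither a mouse strain nor an age. They list no cells given PLG, EACA or RNases alone, and leave unstated if replicates are separate animals or separate cultures. The p-values below therefore measure only the spread between these samples, which may be technical.

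As background, PU.1, the product of Spi1, is an ETS factor that opens chromatin at myeloid enhancers together with C/EBP factors, which are basic leucine zipper proteins that bind DNA as dimers. C/EBPalpha directs myeloid progenitors, while C/EBPbeta and C/EBPdelta are best known from inflammatory and acute-phase responses. MAF limits self-renewal of mature macrophages and drives Il10, MITF acts with its MiT/TFE relatives on lysosomal and osteoclast genes, and PPARgamma is the nuclear receptor that GM-CSF induces in alveolar macrophages. BHLHE40 and BHLHE41 are E-box repressors that sustain alveolar and other tissue macrophages and also bind clock genes.

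Promoters are shown for Cebpa and Cebpb, whose levels went opposite ways, and for Bhlhe41, a member of the E-box family, so that the letters of the recognition motifs can be read. The RefSeq promoter table for GRCm38.p6 matched 5 of the 9 genes, namely Cebpa, Cebpb, Mitf, Pparg and Bhlhe41, of which Mitf and Pparg have 3 starts each there. Each line is written 5′ to 3′ on the strand of the gene and ends at the base before the RefSeq start, except that the Bhlhe41 line ends where the GENCODE gene begins. Capitals mark 4 motifs on either strand: the core of a C/EBP site (TTGCG), the core of a cyclic AMP response element (TGACG), the canonical E-box (CACGTG) and the TATA box (TATAAA).
Cebpa, chr7:35119043-35119292, plus strand: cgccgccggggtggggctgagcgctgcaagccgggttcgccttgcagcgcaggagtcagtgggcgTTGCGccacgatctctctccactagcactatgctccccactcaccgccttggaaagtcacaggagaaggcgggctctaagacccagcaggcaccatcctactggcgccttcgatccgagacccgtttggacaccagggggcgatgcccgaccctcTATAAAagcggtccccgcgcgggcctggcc
Cebpb, chr2:167688665-167688914, plus strand: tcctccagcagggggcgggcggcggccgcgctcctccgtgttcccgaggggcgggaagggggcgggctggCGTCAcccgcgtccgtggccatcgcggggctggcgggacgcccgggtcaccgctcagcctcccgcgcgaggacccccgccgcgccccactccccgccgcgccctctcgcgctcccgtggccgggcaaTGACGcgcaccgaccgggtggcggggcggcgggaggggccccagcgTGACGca
Bhlhe41, chr6:145865559-145865670, minus strand: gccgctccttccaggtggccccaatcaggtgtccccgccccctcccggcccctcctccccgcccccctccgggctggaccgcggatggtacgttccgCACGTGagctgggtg
The Cebpa window held the C/EBP core TTGCG, whose first base lies 185 bases before the start, and a TATAAA at 30 bases. The Cebpb window held 3 matches to TGACG at 180, 53 and 7 bases before the start. The Bhlhe41 window held 1 canonical E-box, CACGTG, at 153 bases before the RefSeq start. Of 32851 promoter windows of 250 bases in the table, 14.5% held the C/EBP core, 17.8% the core of the cyclic AMP response element, 6.02% the E-box and 12.4% the TATA box. Both strands were also searched for the full cyclic AMP response element TGACGTCA (1.55% of windows), the C/EBP palindrome TTNNGCAA (9.56%), the PU.1 core GAGGAA (23.3%), the STAT site TTCNNNGAA (7.02%) and the interferon response motif (2.98%), which were not in these 3 windows of 250 bases. TGACG lies within TGACGTCA. A match describes letters and was not tested as a binding site.

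The level of a gene is given in FPKM, read counts scaled to the length of the gene and to all counted reads of the library, so that genes can be compared per length. Depth recovered from the steps of the values ran from 12940887 to 22677043 reads. Replicate 4 of PLG+EACA stood apart: it lay at 30.4 on the second principal component, against 7.26 to 10.3 for the other libraries of its group, and chi-square values over degrees of freedom between replicates of that group were 21.3 to 35.0 with it and 5.89 to 14.8 without it. With PLG+EACA+RNase, replicate 4 had pairs at 13.8 to 24.3 and the others at 7.93 to 9.74, and with untreated cells all pairs lay at 3.21 to 6.16. All 11 macrophage markers were present in every group, with a summed FPKM of 5419 to 6028 in untreated cells, 4238 to 6181 after PLG+EACA and 4163 to 4717 after PLG+EACA+RNase. The 12 dendritic cell markers summed to 4269 to 4466, 3622 to 4520 and 3652 to 4580. Most of that sum was Cd74, at 3664 FPKM ± 73.3, 3294 ± 364 and 3491 ± 362 (SD, n = 4). H2-Ab1 added 549 ± 24.7 in untreated cells. Lyz2 likewise made up most of the macrophage sum, at 4663 ± 219, 4289 ± 830 and 3615 ± 219. The 2 sums therefore do not compare numbers of cells. The 11 lymphocyte markers summed to at most 2.25 in any library and the 8 markers of stroma and endothelium to at most 21.7.

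In untreated cells Cebpb had the highest level of the 9 genes, at 315 FPKM ± 18.8 (mean ± SD, n = 4), followed by Spi1 at 138 ± 7.45. Cebpa at 80.1 ± 4.64 and Bhlhe40 at 77.8 ± 2.75 did not differ beyond their spread. Bhlhe41 at 37.3 ± 0.984, Mitf at 25.7 ± 0.499 and Cebpd at 13.6 ± 0.888 followed, each with a range apart from the next. Pparg at 1.73 ± 0.175 and Maf at 1.45 ± 0.129 were lowest and overlapped. With PLG+EACA, Bhlhe40 stood above Cebpa and Mitf above Bhlhe41, with no overlap in either pair, while Pparg and Maf again overlapped. With PLG+EACA+RNase the ranges of Spi1 and Bhlhe40 overlapped, as did those of Bhlhe41 and Mitf, and Pparg lay above Maf in every library.

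**Figure D1:**
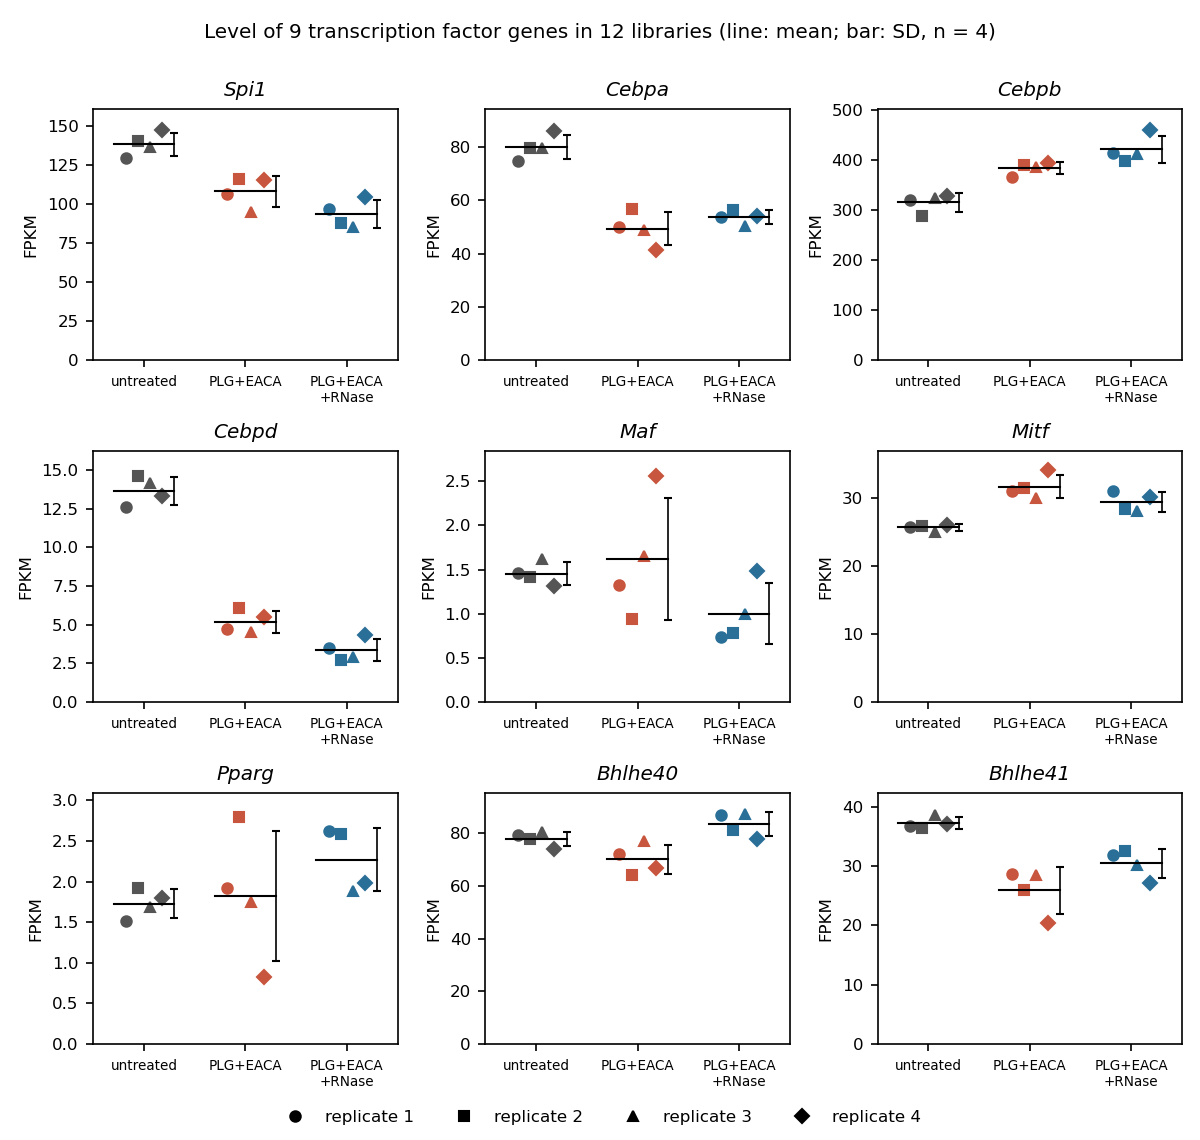
Level of each of the 9 genes (vertical axis, FPKM, from 0) in the 12 libraries, by group. Points are libraries, with the replicate number as the marker shape, lines are means and bars are SD (n = 4). The 3 groups of Cebpd do not overlap, while Maf and Pparg spread widely with PLG+EACA, where replicate 4 holds the highest Maf value (2.56) and the lowest Pparg value (0.831).

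The untreated libraries serve as control for both treatments, and those of PLG+EACA are used 2 times, so the 3 comparisons are not independent. With PLG+EACA, 2 members rose against untreated cells (Cebpb and Mitf) and 5 fell (Spi1, Cebpa, Cebpd, Bhlhe40 and Bhlhe41). Of the 11165 genes tested in limma with Benjamini-Hochberg adjustment, 14.9% rose and 53.4% fell in that comparison. With PLG+EACA+RNase, 2 members rose (Cebpb and Mitf) and 4 fell (Spi1, Cebpa, Cebpd and Bhlhe41), where 16.0% of all genes rose and 48.4% fell. Between the treatments 1 member was higher with PLG+EACA+RNase (Bhlhe40) and 1 lower (Cebpd), against 12.1% and 8.73% of all genes. The count between the treatments varied with single libraries: Bhlhe40 was no longer called without PLG+EACA+RNase replicate 3, and without PLG+EACA+RNase replicate 4 the members called were 2 higher and 3 lower. Without PLG+EACA replicate 2 or 3, 2 members were lower.

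The levels as deposited carry a shift of the whole table. The median log2 fold change of all genes tested was -0.26 with PLG+EACA, and -0.20 for PLG+EACA+RNase, each against untreated cells, and 0.04 between the treatments. Dividing each library by the median of its ratios to the geometric mean over libraries (median-of-ratios scaling) moves these medians to -0.00, -0.03 and -0.05. All genes then divided into 3103 higher and 2818 lower with PLG+EACA, 2789 higher and 3367 lower with PLG+EACA+RNase, and 867 higher and 1927 lower between the treatments. Under that scaling the members called were 2 higher and 3 lower with PLG+EACA, 3 higher and 3 lower with PLG+EACA+RNase, and 0 higher and 2 lower between the treatments. In both scalings Cebpb and Mitf were higher and Cebpa and Cebpd lower than untreated with each treatment, as was Bhlhe41 with PLG+EACA and Spi1 with PLG+EACA+RNase. Because bulk RNA was sequenced, fewer cells that express a gene and less of its RNA per cell cannot be told apart.

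**Figure D2:**
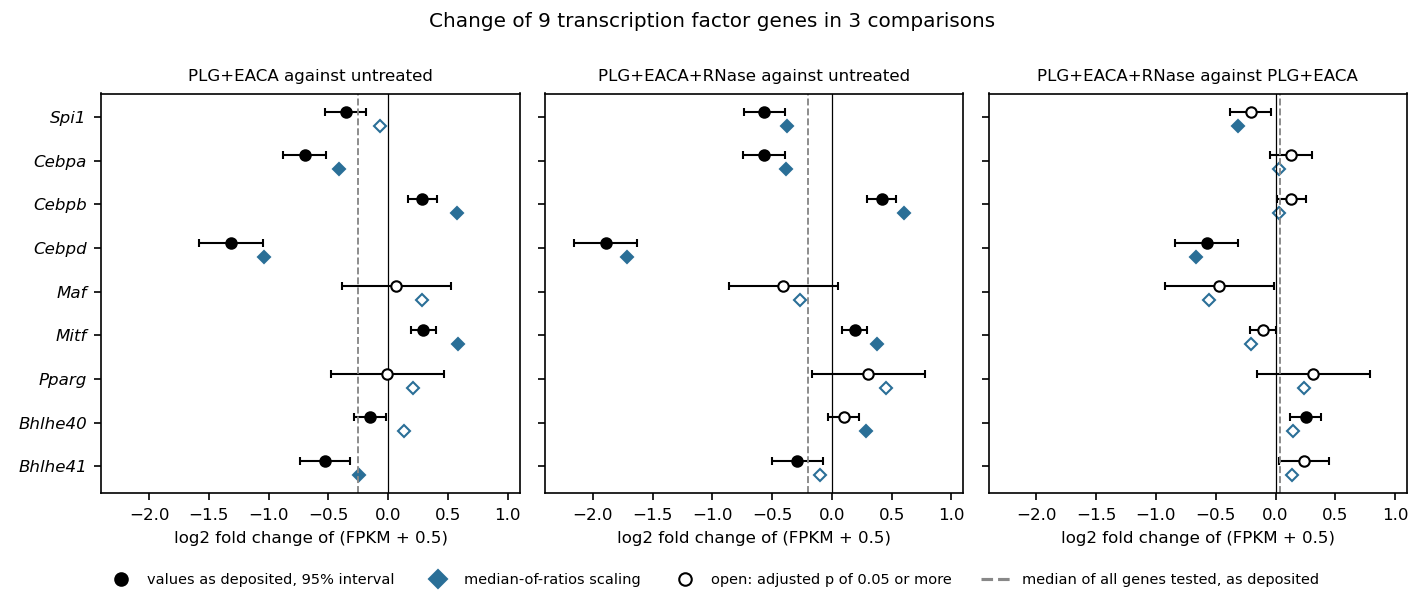
Change of the 9 genes in the 3 comparisons (horizontal axis, log2 fold change of FPKM + 0.5). Circles are values as deposited with 95% intervals, diamonds the same after median-of-ratios scaling, open symbols have an adjusted p of 0.05 or more, and the dashed line is the median of all genes tested. Scaling shifts the diamonds right of the circles in both comparisons with untreated cells, and the sign of Bhlhe40 with PLG+EACA goes from -0.15 to 0.13.

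Spi1 (ENSMUSG00000002111.8) lies at chr2:91082390-91115756 on the plus strand and has 7 exon blocks. Untreated replicates 1 to 4 had 129, 140.1, 136 and 147 FPKM. Replicates of PLG+EACA had 106, 116, 94.7 and 115, and those of PLG+EACA+RNase 96.5, 87.5, 84.9 and 105. Every treated library lay below every untreated one, and the treatments overlapped each other. In limma the log2 fold change was -0.36 (SE 0.079, adjusted p = 0.00165) with PLG+EACA and -0.57 (SE 0.079, adjusted p = 6.43e-05) with PLG+EACA+RNase. The call with PLG+EACA ended with median-of-ratios scaling, at -0.07 (adjusted p = 0.599), and that with PLG+EACA+RNase held at -0.38 (adjusted p = 0.00755). Between the treatments the value was -0.21 (adjusted p = 0.0801) as deposited and -0.31 (adjusted p = 0.0434) with scaling, and it passed the threshold without PLG+EACA replicate 3 (adjusted p = 0.0299) and without PLG+EACA+RNase replicate 4 (adjusted p = 0.025). Spi1 had 2962 to 7580 recovered reads per library.

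Among the 10 tested ETS and IRF relatives and partners of PU.1, 4 fell and 3 rose with PLG+EACA, and 5 fell and 2 rose with PLG+EACA+RNase (2 and 5, then 4 and 3, with scaling). Their median log2 fold change was -0.12 and -0.22, beside -0.26 and -0.20 for all genes. Of all genes, 53.4% and 48.4% fell, and 14.9% and 16.0% rose. Runx1, which encodes a haematopoietic factor that acts upstream of Spi1, fell from 17.1 FPKM ± 0.514 to 10.4 ± 0.610 and 10.2 ± 0.396 (SD, n = 4). The ETS gene Fli1 fell from 16.9 ± 1.27 to 9.21 ± 1.08 and 9.36 ± 0.599. Spic, a PU.1 relative known from macrophages of the red pulp, rose from 0.933 ± 0.0655 to 1.89 ± 0.271 and 1.91 ± 0.341, and passed the filter only through the treated groups. All 3 kept their call in both comparisons with median-of-ratios scaling. Cbfb, the partner of Runx factors, fell from 22.4 ± 1.08 to 17.9 ± 0.744 and 14.9 ± 1.31, but its fall with PLG+EACA was not called with scaling (-0.03, adjusted p = 0.7).

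The 20 tested genes listed as myeloid targets of PU.1 held 10 that fell and 3 that rose with PLG+EACA, and 14 that fell and 1 that rose with PLG+EACA+RNase. Of all genes, 53.4% fell and 14.9% rose with PLG+EACA, and 48.4% fell and 16.0% rose with PLG+EACA+RNase. With scaling these became 4 lower and 8 higher, then 8 lower and 3 higher, so the direction of the list with PLG+EACA turned over, and leaving out PLG+EACA+RNase replicate 2 gave 2 higher in place of 1. The list median was -0.17 and -0.31, beside -0.26 and -0.20 for all genes. Csf1r, the receptor for the growth factor M-CSF, fell from 324 FPKM ± 7.02 to 187 ± 4.60 and 186 ± 6.42. Csf2rb, the signalling chain of the GM-CSF receptor, fell from 634 ± 12.3 to 382 ± 39.4 and 364 ± 18.7. Csf3r, the receptor for G-CSF, fell from 9.39 ± 0.934 to 4.71 ± 0.425 and 4.56 ± 0.650, and Btk, a signalling kinase, from 18.5 ± 0.548 to 12.4 ± 1.01 and 10.2 ± 1.01. These 4 genes were called lower in both scalings and with both treatments. With PLG+EACA they were the only 4 of the list lower after scaling, where 8 were higher.

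Cebpa (ENSMUSG00000034957.10) is a gene of 1 exon block at chr7:35119293-35121928 on the plus strand, just after the promoter printed above. Untreated replicates 1 to 4 had 74.7, 79.8, 79.7 and 86.0 FPKM. With PLG+EACA the values were 50.2, 56.6, 49.0 and 41.4, and with PLG+EACA+RNase 53.7, 56.5, 50.5 and 54.3. No treated library reached the lowest untreated one, and the treatments overlapped. The log2 fold change in limma was -0.70 (SE 0.081, adjusted p = 1.33e-05) with PLG+EACA and -0.57 (SE 0.081, adjusted p = 7.09e-05) with PLG+EACA+RNase. It was -0.41 and -0.38 with scaling, both called. Replicate 4 was the lowest library of PLG+EACA, and without it the change was -0.62. Between the treatments the difference was 0.13, with a 95% interval of -0.05 to 0.31. Cebpa had 1721 to 4302 reads per library. Gm45091 shares 51 exonic bases with it on the other strand and had at most 0.798 FPKM as a group mean.

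Cebpb (ENSMUSG00000056501.3), also of 1 exon block, lies at chr2:167688915-167690418 on the plus strand. Its level in untreated replicates 1 to 4 was 319, 287, 325 and 328 FPKM. These were followed by 366, 389.9, 385 and 394 with PLG+EACA, and 414, 399, 411 and 461 with PLG+EACA+RNase. The 3 groups did not overlap, and the libraries given RNase-exposed PLG were highest. In limma Cebpb rose by 0.29 on the log2 scale (SE 0.056, adjusted p = 0.000716) with PLG+EACA and by 0.42 (SE 0.056, adjusted p = 4.74e-05) with PLG+EACA+RNase. With scaling both rises were larger, at 0.58 and 0.61. The difference between the treatments, 0.13 (adjusted p = 0.114), did not pass the test and was 0.03 with scaling. Its exons share 312 of 1504 bases with Tmem189 on the other strand, a gene at 49.0, 38.4 and 48.0 FPKM in untreated, PLG+EACA and PLG+EACA+RNase. The kit keeps the strand, but whether counting used it is not stated, so reads of the 2 genes may be mixed.

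Cebpd (ENSMUSG00000071637.5), at chr16:15887286-15891031 on the plus strand in 1 exon block, moved furthest of the 9 genes. Untreated replicates 1 to 4 had 12.6, 14.6, 14.1 and 13.3 FPKM. With PLG+EACA the levels were 4.72, 6.09, 4.53 and 5.47, and with PLG+EACA+RNase 3.47, 2.72, 2.91 and 4.31. The 3 groups did not overlap, with untreated cells highest and PLG+EACA+RNase lowest. The log2 fold change in limma was -1.32 (SE 0.121, adjusted p = 2.56e-06) with PLG+EACA, a 2.49-fold fall. With PLG+EACA+RNase it was -1.89 (SE 0.121, adjusted p = 2.75e-07), a 3.71-fold fall that ranked 12th from the lowest of the 11165 genes. Between the treatments it was -0.57 (SE 0.121, adjusted p = 0.0108), and Cebpd was the only member called there in both scalings. Spidr, on the other strand, shares 562 exonic bases with Cebpd and had 2.16, 1.72 and 1.98 FPKM in the 3 groups. Cebpd rested on 141 to 1083 reads per library.

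Ratios of relatives were taken within a library, where a scaling factor cancels except for the added 0.5 FPKM. The mean log2 ratio of Cebpd to Cebpb was -4.48 ± 0.161 in untreated cells, -6.08 ± 0.156 after PLG+EACA and -6.79 ± 0.175 after PLG+EACA+RNase (SD, n = 4). The ratio of Cebpa to Cebpb was -1.97 ± 0.108, -2.96 ± 0.201 and -2.96 ± 0.115. Both ratios were lower in every treated library than in any untreated one. In two-sided exact permutation tests, each with 4 libraries a group, every fall against untreated cells had p = 0.0286, the smallest p this design allows, and an adjusted p of 0.049 over 12 ratio tests. The same exact p and adjusted p held for the fall of Cebpd to Cebpb by 0.71 between the treatments, while the difference for Cebpa to Cebpb was -0.00 (exact permutation p = 0.971). Against untreated cells Cebpb lay higher and Cebpa and Cebpd lower without overlap, as Cebpb and Cebpd did between the treatments. Those separations fixed the exact permutation p of 0.0286 in advance, so it adds no support to the levels of the single genes. The adjusted p of 0.049 depends on how many of the 12 tests reached that p.

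**Figure D3:**
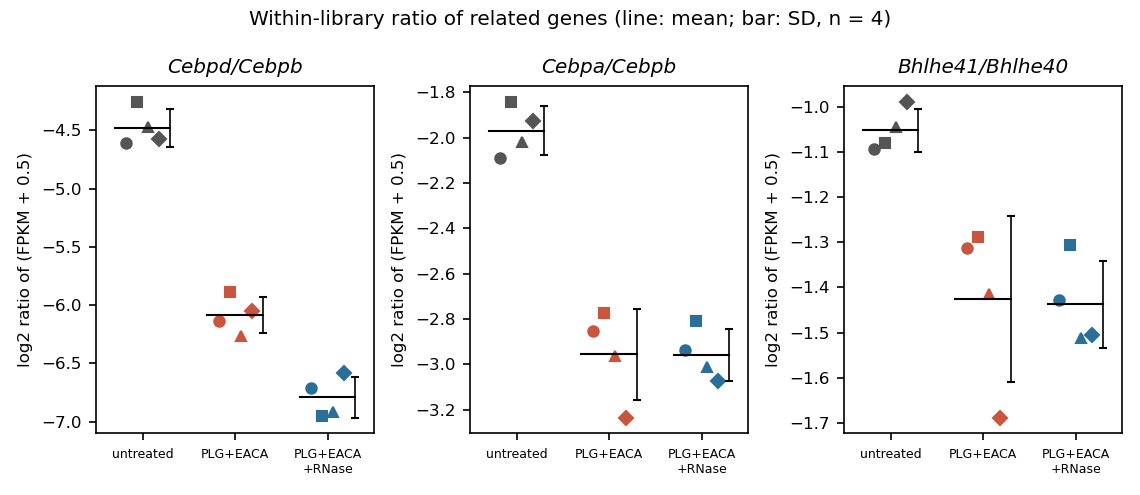
Log2 ratio of the levels (FPKM + 0.5) of related genes within each library (vertical axis), by group. Points are libraries, lines are means and bars are SD (n = 4). Cebpd to Cebpb falls in 2 steps from -4.48 to -6.08 and -6.79, and Cebpa to Cebpb and Bhlhe41 to Bhlhe40 are lower in both treatments than in untreated cells.

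None of the 6 tested C/EBP relatives and partners rose, and 4 fell with each treatment (2 with scaling). Their median was -0.42 and -0.39, beside -0.26 and -0.20 for all genes, of which 53.4% and 48.4% fell. Ddit3, which encodes CHOP, a C/EBP protein of the stress response, fell from 38.1 FPKM ± 1.45 to 18.1 ± 3.72 and 20.1 ± 2.87. Cebpz, counted here for its name only and not as a member of the C/EBP family, fell from 4.73 ± 0.206 to 2.59 ± 0.379 and 2.53 ± 0.203. Both were called lower with scaling too. Cebpg, which encodes a dimer partner of other C/EBP proteins, went from 14.6 ± 0.613 to 11.7 ± 1.53 and 11.4 ± 1.06, a fall in both comparisons as deposited that was called in neither with scaling.

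Genes listed as C/EBP targets in myeloid cells split in 2 directions. Of the 17 tested, 9 rose and 6 fell with PLG+EACA (9 and 5 with scaling), and 8 rose and 7 fell with PLG+EACA+RNase (9 and 4 with scaling). The medians were 0.68 and 0.31, above the -0.26 and -0.20 of all genes. Among all genes 14.9% and 16.0% rose, and 53.4% and 48.4% fell. Among the genes that rose, Ptgs2, the inducible cyclooxygenase, went from 71.4 FPKM ± 4.62 to 703 ± 110.4 and 486 ± 69.3, Tnf from 165 ± 27.3 to 611 ± 74.8 and 483 ± 37.4, and Il12b from 18.1 ± 3.07 to 320.1 ± 134 and 204 ± 47.7. Among the genes that fell, Il6ra, the ligand-binding chain of the IL-6 receptor, went from 2.83 ± 0.25 to 0.994 ± 0.0491 and 0.764 ± 0.0660. Il6ra reached the filter level in all 4 libraries of the untreated group only. Between the treatments 8.73% of all genes were lower with PLG+EACA+RNase and 12.1% higher. In this list 4 of the 17 were lower and 0 higher, beside a list median of -0.23. They were Ptgs2 (-0.53), Msr1, a scavenger receptor gene (-0.32), Il6 (-1.02) and, named after its value was seen to make the count complete, Nos2 (-0.93, adjusted p = 0.0458 in limma). The call of Nos2 was lost when any 1 library was left out other than PLG+EACA replicate 2 or PLG+EACA+RNase replicate 4, with adjusted p-values up to 0.128. With only these 2 groups fitted in limma, Il6 (adjusted p = 0.0505), Msr1 (adjusted p = 0.0551) and Nos2 (adjusted p = 0.114) were not called.

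Maf (ENSMUSG00000055435.6) lies at chr8:115682942-115707794 on the minus strand in 3 exon blocks and had a low level in every library. Untreated replicates 1 to 4 had 1.46, 1.42, 1.63 and 1.31 FPKM. The levels were 1.33, 0.942, 1.65 and 2.56 with PLG+EACA and 0.738, 0.777, 0.994 and 1.49 with PLG+EACA+RNase. All 3 groups overlapped, and replicate 4 was the highest library of each treatment. In limma the log2 fold change was 0.07 (SE 0.209, adjusted p = 0.794) with PLG+EACA, -0.41 (SE 0.209, adjusted p = 0.107) with PLG+EACA+RNase and -0.47 (SE 0.209, adjusted p = 0.126) between the treatments. Without PLG+EACA replicate 4 the first value was -0.13, and the second passed the threshold (adjusted p = 0.046). Without PLG+EACA+RNase replicate 4 the second was -0.55 (adjusted p = 0.0358) and the third -0.62 (adjusted p = 0.044), and without PLG+EACA replicate 2 the third was -0.64 (adjusted p = 0.0443). With 106 to 370 reads per library and overlapping groups, no change of Maf was called.

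The small MAF genes, whose products lack an activation domain and pair with other leucine zipper proteins, were higher in both treatments. Of 4 tested MAF relatives 3 rose and 0 fell with each treatment in both scalings, with medians of 0.68 and 0.76. For all genes the medians were -0.26 and -0.20, with 14.9% and 16.0% higher and 53.4% and 48.4% lower. Mafk rose from 14.9 FPKM ± 0.540 to 34.9 ± 1.77 and 32.0 ± 2.42, Maff from 18.3 ± 0.719 to 38.1 ± 5.08 and 49.4 ± 2.52, and Mafg from 48.9 ± 2.37 to 61.8 ± 9.43 and 67.3 ± 3.34. Maff was also higher with PLG+EACA+RNase than with PLG+EACA, by 0.38 in limma (adjusted p = 0.0114).

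Of the 9 tested macrophage genes listed with MAF, 2 rose and 1 fell with PLG+EACA, and 3 rose and 0 fell with PLG+EACA+RNase (4 and 1, then 3 and 0, with scaling). The counts of lower genes were unstable: 2 fell with PLG+EACA without PLG+EACA replicate 2, and with PLG+EACA+RNase 1 fell without PLG+EACA replicate 1 or 4 and 2 without PLG+EACA+RNase replicate 1. None of the untreated libraries reached the filter level for Il10, so it was tested only because it was high in treated cells. Il10, an anti-inflammatory cytokine gene that MAF activates, rose from 0.121 FPKM ± 0.0674 to 1.95 ± 0.687 and 2.12 ± 0.813. The mannose receptor gene Mrc1 rose from 13.7 ± 1.31 to 24.9 ± 6.67 and 21.2 ± 3.38. List medians were 0.19 and -0.15, beside -0.26 and -0.20 for all genes. The shares of all genes were 14.9% and 16.0% higher and 53.4% and 48.4% lower.

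Mitf (ENSMUSG00000035158.15) spans chr6:97807052-98021349 on the plus strand with 12 exon blocks. Untreated replicates 1 to 4 had 25.7, 25.9, 24.9 and 26.1 FPKM. They were followed by 31.0, 31.4, 30.0 and 34.0 with PLG+EACA and by 31.0, 28.3, 28.1 and 30.1 with PLG+EACA+RNase. Every treated library lay above every untreated one, and the treatments overlapped. In limma Mitf rose by 0.29 (SE 0.048, adjusted p = 0.000192) with PLG+EACA and by 0.19 (SE 0.048, adjusted p = 0.00428) with PLG+EACA+RNase on the log2 scale, and by 0.58 and 0.37 with scaling. The difference between the treatments was -0.10, with a 95% interval of -0.21 to 0.00.

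The list of MITF relatives held Tfe3, Tfeb and Tfec of the MiT/TFE family and 2 further E-box factors, Usf1 and Usf2. Of these 5, 3 fell (Tfe3, Tfeb and Usf2) and 0 rose with PLG+EACA and 4 fell and 0 rose with PLG+EACA+RNase (3 and 1, then 3 and 0, with scaling), with medians of -0.54 and -0.61. For all genes the medians were -0.26 and -0.20, and 53.4% and 48.4% fell. Tfeb, the best known regulator of lysosomal genes, fell from 8.58 FPKM ± 0.268 to 3.20 ± 0.746 with PLG+EACA and was 5.47 ± 1.1 with PLG+EACA+RNase. It was lower than untreated with both treatments and higher with PLG+EACA+RNase than with PLG+EACA by 0.69 in limma (adjusted p = 0.0127), in both scalings. The call between the treatments was lost with only these 2 groups fitted (adjusted p = 0.0537). Tfe3 fell from 17.6 ± 0.564 to 11.9 ± 0.398 and 10.8 ± 0.739. Tfec, a relative expressed in macrophages and osteoclasts, had 14.2 ± 0.111, 13.2 ± 1.23 and 9.24 ± 1.37, a fall called with PLG+EACA+RNase and not with PLG+EACA, and it was lower with PLG+EACA+RNase than with PLG+EACA by -0.50 (adjusted p = 0.00675).

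Of 21 tested lysosomal and osteoclast genes listed as MiT/TFE targets, 17 fell and 2 rose with PLG+EACA, and 11 fell and 2 rose with PLG+EACA+RNase. Scaling left 5 lower and 2 higher, then 3 lower and 6 higher, so most of the falls were not called after scaling, with list medians of -0.34 and -0.20 beside -0.26 and -0.20. Without PLG+EACA+RNase replicate 4, 4 rose with PLG+EACA+RNase. Of all genes as deposited, 53.4% fell and 14.9% rose with PLG+EACA, and 48.4% fell and 16.0% rose with PLG+EACA+RNase. Sqstm1, an autophagy receptor gene, rose from 609 FPKM ± 35.5 to 1295 ± 203 and 1276 ± 91.2. Gpnmb, a lysosomal membrane glycoprotein gene that MITF activates, fell from 1581 ± 71.7 to 1162 ± 67.5 and 1263 ± 104, called with scaling for PLG+EACA only (-0.15, adjusted p = 0.0416). Between the treatments 12.1% of all genes were higher with PLG+EACA+RNase and 8.73% lower. Of the 21 listed genes 6 were higher and 0 lower (4 and 0 with scaling), led by Rragd at 0.82 in limma, a subunit of the Rag GTPase. That count was 2 without PLG+EACA+RNase replicate 1, 1 without replicate 2 or 3 of that group, and 11 without replicate 4. With only these 2 groups fitted in limma, Rragd was not called (adjusted p = 0.0582).

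Osteoclast markers were read beside Mitf because it takes part in osteoclast formation. The 8 of them summed to 179.8 to 189 FPKM in untreated cells, 122 to 167 after PLG+EACA and 136 to 163 after PLG+EACA+RNase, and 6 were tested. With PLG+EACA 0 rose and 4 fell (2 and 2 with scaling), and with PLG+EACA+RNase 1 rose and 3 fell (1 and 2 with scaling). Among all genes 14.9% rose and 53.4% fell with PLG+EACA, and 16.0% rose and 48.4% fell with PLG+EACA+RNase. Ctsk and Mmp9 fell with both treatments in both scalings, while Ocstamp went from 1.73 ± 0.134 to 2.54 ± 1.14 and 2.77 ± 0.391, a rise called as deposited with PLG+EACA+RNase only (0.55, adjusted p = 0.0339 in limma), and that call was lost without any 1 untreated library and without PLG+EACA+RNase replicate 1 or 4. Their part in the result for Mitf was not tested. Of the mast cell and basophil markers, which MITF is also known to regulate, 9 of 12 were in the table and 4 were tested. With PLG+EACA 1 rose and 1 fell, and with PLG+EACA+RNase 2 rose and 1 fell, in both scalings. Kit, the receptor for stem cell factor, fell from 3.04 ± 0.421 to 1.31 ± 0.274 and 1.36 ± 0.311. Hdc, the enzyme that makes histamine, rose from 1.46 ± 0.183 to 8.51 ± 3.09 and 5.28 ± 1.80. Prss34 had 0.521 ± 0.531, 0.185 ± 0.122 and 4.28 ± 5.35, with libraries from 0.908 to 12.25 in the last group. It was the only 1 of the 4 called between the treatments, higher with PLG+EACA+RNase by 2.25 in limma. That call was lost with only these 2 groups fitted (adjusted p = 0.0537) and without PLG+EACA+RNase replicate 3 (adjusted p = 0.0504).

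Pparg (ENSMUSG00000000440.12) lies at chr6:115360951-115490399 on the plus strand and has 13 exon blocks. Its level was low, at 1.51, 1.93, 1.69 and 1.79 FPKM in untreated replicates 1 to 4. With PLG+EACA the values were 1.93, 2.79, 1.74 and 0.831, and with PLG+EACA+RNase 2.62, 2.59, 1.88 and 1.98. The groups overlapped, and PLG+EACA held both the highest and the lowest library. In limma the change was -0.01 (adjusted p = 0.974) with PLG+EACA, 0.31 (adjusted p = 0.234) with PLG+EACA+RNase and 0.32 (adjusted p = 0.316) between the treatments, each with an SE of 0.216. The 95% intervals ran from -0.48 to 0.46, from -0.17 to 0.78 and from -0.16 to 0.79. The rise with PLG+EACA+RNase was called only when PLG+EACA was left out of the fit (adjusted p = 0.0369). Pparg had 43 to 187 reads per library.

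PPARgamma binds DNA with a retinoid X receptor, and of 9 tested PPAR and RXR relatives and partners 7 fell and 1 rose with each treatment (6 and 2, then 6 and 1, with scaling). The medians were -0.56 and -0.54, beside -0.26 and -0.20 for all genes, of which 53.4% and 48.4% fell. Rxra, the main RXR of macrophages, fell from 14.6 FPKM ± 0.126 to 7.22 ± 0.550 and 9.11 ± 0.888, and the co-activator gene Ppargc1b from 7.57 ± 0.319 to 2.48 ± 0.523 and 3.32 ± 0.519. Ppard, which encodes the relative PPARdelta, rose from 18.1 ± 0.125 to 22.1 ± 2.51 and 29.9 ± 1.83. It was higher with PLG+EACA+RNase than with PLG+EACA by 0.43 in limma (adjusted p = 0.00611), and Rxra by 0.31 (adjusted p = 0.0129, and 0.0582 with only these 2 groups fitted). These 3 genes kept their direction and call against untreated cells with scaling.

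Of 14 tested lipid genes listed as PPARgamma targets, 9 fell and 2 rose with PLG+EACA and 8 fell and 3 rose with PLG+EACA+RNase (5 and 4 with scaling in both comparisons), with medians of -0.31 and -0.28, beside -0.26 and -0.20 for all genes, of which 53.4% and 48.4% fell. Without PLG+EACA replicate 2, 1 gene rose with PLG+EACA. Fabp3, a fatty acid binding protein gene, rose from 10.9 FPKM ± 1.22 to 53.0 ± 5.87 and 52.1 ± 3.04. Lpl, lipoprotein lipase, fell from 269.8 ± 5.18 to 190.0 ± 17.9 and 180.2 ± 4.94, and Abcg1, a cholesterol exporter gene, from 78.8 ± 4.13 to 48.8 ± 8.58 and 35.0 ± 5.23. All 3 were called in the same direction with scaling.

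Of 11 tested alveolar macrophage genes 5 fell and 3 rose with PLG+EACA (2 and 5 with scaling), and 3 fell and 3 rose with PLG+EACA+RNase (1 and 4). The list median was 0.10 and -0.04, beside -0.26 and -0.20 for all genes. Of all genes, 53.4% and 48.4% fell, and 14.9% and 16.0% rose. Slc7a2, an arginine transporter gene, rose from 70.2 FPKM ± 5.84 to 215 ± 35.6 and 179 ± 18.7, and Il1rn, the IL-1 receptor antagonist, from 49.1 ± 1.34 to 128 ± 31.0 and 97.5 ± 12.4. Itgax, which encodes CD11c, fell from 507 ± 11.8 to 386 ± 31.2 and 405 ± 15, calls that ended with scaling.

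Bhlhe40 (ENSMUSG00000030103.11) lies at chr6:108660629-108666925 on the plus strand in 5 exon blocks. Its level was 79.2, 77.6, 80.3 and 74.0 FPKM in untreated replicates 1 to 4. It was 72.2, 64.0, 76.8 and 66.9 with PLG+EACA and 86.8, 81.3, 87.2 and 77.8 with PLG+EACA+RNase. Untreated cells overlapped with both treatments, and the treatments did not overlap each other. In limma the change with PLG+EACA was -0.15 (SE 0.060, adjusted p = 0.0381) as deposited and 0.13 (adjusted p = 0.0613) with scaling, so its sign depended on the scaling. That call also ended without untreated replicate 1, 2 or 3 (adjusted p = 0.0834, 0.0674 and 0.0938) and without PLG+EACA replicate 2 or 4 (adjusted p = 0.113 and 0.0883). With PLG+EACA+RNase the change was 0.10 (adjusted p = 0.175), and 0.28 (adjusted p = 0.00109) with scaling. Between the treatments Bhlhe40 was higher with PLG+EACA+RNase by 0.25 (SE 0.060, adjusted p = 0.0163), and by 0.15 (adjusted p = 0.0685) with scaling, and without PLG+EACA+RNase replicate 3 it was 0.23 (adjusted p = 0.053). 0610040F04Rik shares 118 exonic bases on the other strand and had at most 0.193 FPKM as a group mean.

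Bhlhe41 (ENSMUSG00000030256.11) lies at chr6:145858243-145865558 on the minus strand in 3 exon blocks, downstream of the E-box shown above. Untreated replicates 1 to 4 had 36.8, 36.4, 38.7 and 37.1 FPKM. With PLG+EACA the levels were 28.8, 25.9, 28.5 and 20.4, and with PLG+EACA+RNase 32.0, 32.6, 30.3 and 27.1. All treated libraries lay below the untreated ones, and the treatments overlapped, with replicate 4 lowest in each. In limma the change was -0.53 (SE 0.096, adjusted p = 0.000422) with PLG+EACA, -0.42 without replicate 4 of that group and -0.24 (adjusted p = 0.0134) with scaling. With PLG+EACA+RNase it was -0.29 (SE 0.096, adjusted p = 0.0198), which ended with scaling (-0.10, adjusted p = 0.245), without untreated replicate 3 (adjusted p = 0.0503) and without PLG+EACA+RNase replicate 4 (adjusted p = 0.0588). Between the treatments the value was 0.24 (adjusted p = 0.0962), and 0.29 (adjusted p = 0.0458) without PLG+EACA+RNase replicate 4. Gm43909 shares 1280 exonic bases on the other strand and had 1.32, 0.809 and 1.31 FPKM in the 3 groups.

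Within a library, Bhlhe41 fell relative to Bhlhe40. The log2 ratio was -1.05 ± 0.0471 in untreated cells, -1.43 ± 0.184 after PLG+EACA and -1.44 ± 0.0961 after PLG+EACA+RNase (SD, n = 4). Each treated library lay below each untreated one (exact permutation p = 0.0286 for both treatments, adjusted p = 0.049). Between the treatments the difference was -0.01 (exact permutation p = 0.886).

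Of 7 tested clock genes with E-boxes, 4 fell and 0 rose with PLG+EACA and 3 fell and 1 rose with PLG+EACA+RNase (2 and 1 in both with scaling), with medians of -0.32 and -0.12. Of all genes, 53.4% and 48.4% fell in these 2 comparisons, with medians of -0.26 and -0.20. Without PLG+EACA replicate 4, 1 gene rose with PLG+EACA. Tef fell from 3.57 FPKM ± 0.167 to 1.73 ± 0.296 and 2.32 ± 0.410, and Cry2, a repressor of the clock, from 1.66 ± 0.206 to 0.880 ± 0.0612 and 0.855 ± 0.194, calls that held with scaling. Cry2 reached the filter level in all 4 libraries of the untreated group only. Arntl, which encodes the activator BMAL1, fell from 2.07 ± 0.149 to 1.45 ± 0.144 and 1.62 ± 0.0846, and neither fall was called with scaling.

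Other transcription factors of the myeloid lineage were called in both directions. Of 17 tested, 6 rose and 5 fell with PLG+EACA and 7 rose and 5 fell with PLG+EACA+RNase (6 and 2, then 8 and 4, with scaling). The medians were -0.00 and 0.09, above the -0.26 and -0.20 of all genes. Of all genes, 14.9% and 16.0% rose, and 53.4% and 48.4% fell. Rara, the retinoic acid receptor alpha gene, fell from 16.1 FPKM ± 1.27 to 7.96 ± 0.654 and 9.06 ± 0.637, and Hhex from 2.14 ± 0.256 to 1.11 ± 0.108 and 0.932 ± 0.102. Nr4a1, an early response gene that marks patrolling monocytes, rose from 0.227 ± 0.0258 to 0.964 ± 0.231 and 1.16 ± 0.0472. Between the treatments 3 were higher with PLG+EACA+RNase and 2 lower, with Ikzf1, the Ikaros gene, falling from 11.4 ± 1.71 to 7.12 ± 0.883, Id1 rising from 0.642 ± 0.0290 to 1.77 ± 0.658 and Klf2 from 2.40 ± 0.869 to 5.54 ± 1.37. Nr4a1 passed the filter only through the treated groups and Id1 only through PLG+EACA+RNase, where each was high. The count of lower genes was 1 without PLG+EACA+RNase replicate 2 or 3. Among all genes 12.1% were higher and 8.73% lower between the treatments.

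**Figure D4:**
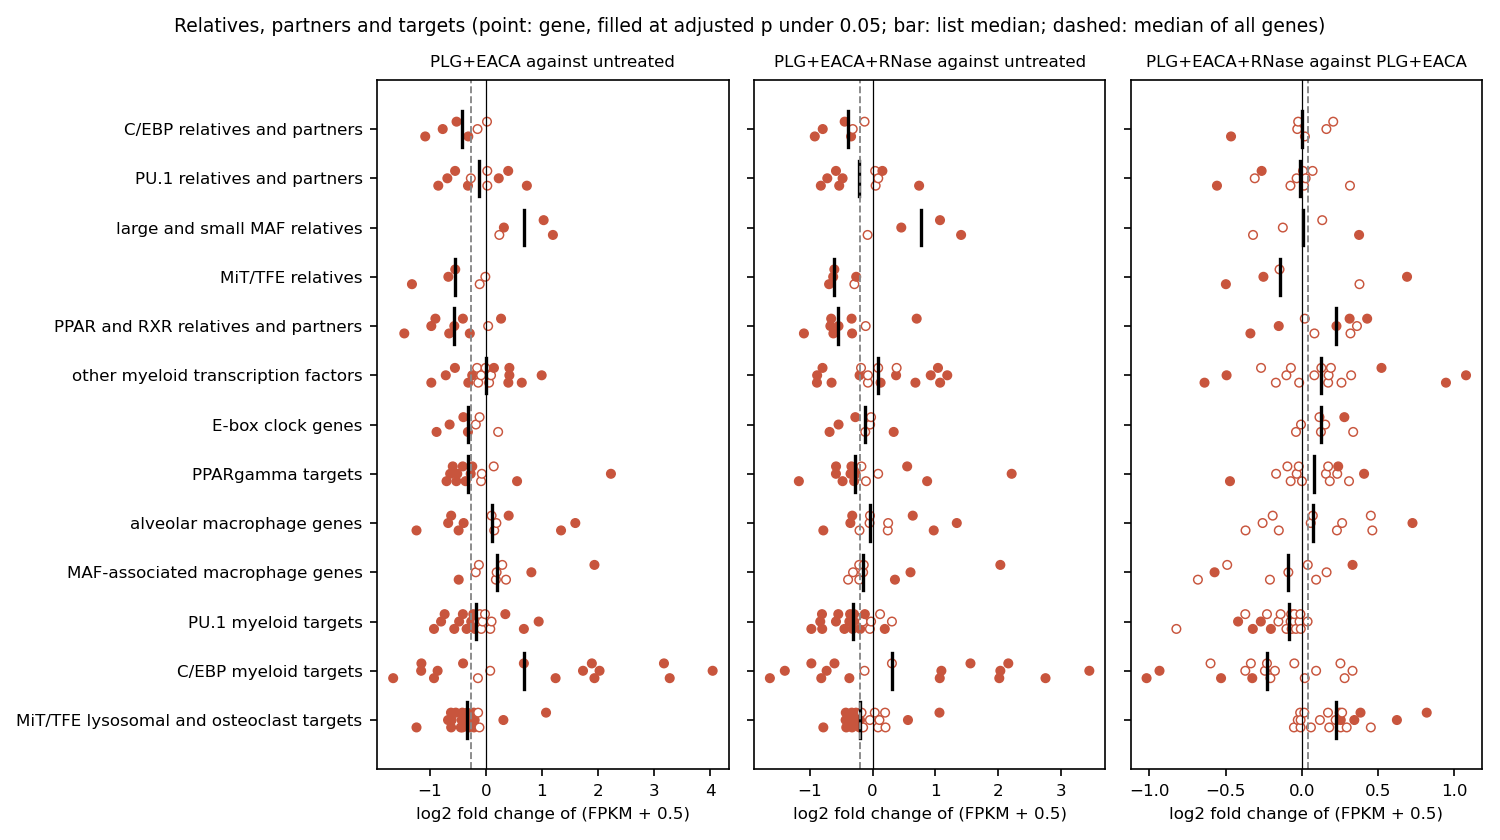
Change of the relatives, partners and targets of the 9 genes in the 3 comparisons (horizontal axis, log2 fold change of FPKM + 0.5). Points are genes, filled at an adjusted p under 0.05, black bars are list medians and the dashed line is the median of all genes tested. The small MAF genes lie to the right of 0 against untreated cells, while the C/EBP targets spread on both sides, with a median of 0.68 with PLG+EACA.

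Neutrophil markers were read beside the C/EBP and PU.1 genes, which neutrophils share. The 12 of them summed to 311 to 394 FPKM in untreated cells, 135 to 174 after PLG+EACA and 125 to 155 after PLG+EACA+RNase. Most of that sum was Mmp8, at 313 ± 39.6, 119 ± 15.8 and 107 ± 10. Without Mmp8, a choice made after its values were seen, the other 11 summed to 19.9 to 55.7, 25.7 to 58.4 and 24.0 to 49.3, which overlap. Of the 6 tested, Mmp8 and Csf3r fell with both treatments, Ltf rose with PLG+EACA+RNase and S100a8, S100a9 and Camp were not called. The part of neutrophils in the fall of Cebpa, Cebpd and Spi1 was not tested.

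For each of the 9 genes, the 2 genes of most similar pattern were sought among 9721 tested genes over the 12 libraries, by the root mean square difference of centred log2(FPKM + 0.5). Dpep2 and Plekhf1 were nearest to Cebpd, at 0.23 and 0.25 on the log2 scale, where Cebpd itself varied by 0.81 about its mean. Dpep2 had 4.4, 1.78 and 1.18 FPKM in untreated, PLG+EACA and PLG+EACA+RNase, and Plekhf1 2.79, 0.972 and 0.66. Grk6 and Aktip were nearest to Cebpa (0.067 and 0.07, own variation 0.32), Anxa2 and Gatad2a to Cebpb (0.07 each, own variation 0.19), and Tmem18 and Fkbp5 to Spi1 (0.059 and 0.064, own variation 0.26). Nup98 and Tox4 were nearest to Mitf (0.038 and 0.042, own variation 0.13), Fzr1 and Zfand6 to Bhlhe40 (0.058 and 0.061, own variation 0.13), and Sec11c and Vps18 to Bhlhe41 (0.056 and 0.057, own variation 0.25). The low genes had looser neighbours: P2ry14 and Socs3 for Maf (0.11 and 0.14, own variation 0.35), and Ahnak2 and Pmaip1 for Pparg (0.17 and 0.18, own variation 0.33). These are descriptions over libraries that share scaling and group, with no test.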

How the data were processed

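RNA of 12 libraries was made with a strand-keeping kit, per the labels' protocols. Per the submitters' processing notes, the tools included STAR 2.7.11a, DESeq2 1.40.2, featureCounts 2.0.6, cutadapt 4.5 and FastQC 0.12.1, with the build GRCm38.p6 and no stated roles. The strand setting of counting is not given in the sources used here. The authors deposited FPKM, and FPKM times the gene length in kilobases summed to the same total in every library, so the values carry no scaling between libraries. Gene lengths and positions (other values) are as deposited per the file headers. Reads were recovered from the steps of the values: 97.9% to 99.8% of values per library came within 0.1 of a whole read.

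Genes at 1 FPKM or more in at least 4 libraries were tested on log2(FPKM + 0.5) with limma 3.58.1 in R 4.3.3, in 1 fit of the 3 groups, with Benjamini-Hochberg adjustment over 11165 genes and a threshold of 0.05. Fold changes on this scale understate the change of low genes. Ratios were tested with scipy 1.17.1. Positions and exons come from GENCODE M21 and the promoters from RefSeq. The fit was tested on simulated data. Samples were grouped by their labels, which do not say whether replicate numbers pair the samples, and the numbers were not used as pairs.

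The members and the 20 lists (229 of 233 symbols in the table) were chosen with earlier results of these data known. Named are all 9 members, the 2 genes most like each, up to 3 genes of smallest p per list and comparison, and genes overlapping a member. The 21 alternatives changed the pseudocount, filter, scaling, groups fitted, variance estimate, replicate block or use of recovered reads, or left out 1 library. List genes outside this rule are given as counts only. The counts include genes that passed the filter only through groups where they were high, and such rises were favoured by the filter. The list counts are to be read against the shares of all genes called as deposited, which are not repeated at every count. These were 14.9% higher and 53.4% lower with PLG+EACA, and 16.0% and 48.4% with PLG+EACA+RNase. Between the treatments they were 12.1% and 8.73%. With scaling the shares were 27.8% higher and 25.2% lower with PLG+EACA, and 25.0% and 30.2% with PLG+EACA+RNase. They were 7.77% and 17.3% between the treatments with scaling. Some results, among them 1 of the 4 ratios tested, are not reported here.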

Additional observations from a re-analysis of the deposited data

How the results depend on the processing

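Of the 27 fold changes of the 9 genes, those of Cebpa, Cebpb, Cebpd and Mitf against untreated cells kept their direction and call under all 21 alternatives. So did those of Spi1 with PLG+EACA+RNase and Bhlhe41 with PLG+EACA, each against untreated cells. With median-of-ratios scaling, 3 members fell with PLG+EACA, 0 rose and 2 fell between the treatments, Bhlhe40 with PLG+EACA was 0.13 and Pparg 0.21, and 5 named list genes that were called as deposited changed sign: Ikzf1 (0.037), Tlr4 (0.022), Mcoln1 (0.015) and Nfatc1 (0.029) with PLG+EACA, and Ncf1 (0.064) with PLG+EACA+RNase. Of all genes, that scaling gave 3103 higher and 2818 lower with PLG+EACA, 2789 higher and 3367 lower with PLG+EACA+RNase, and 867 higher and 1927 lower between the treatments. A filter at 5 FPKM, which removed Maf and Pparg, left 3546 lower with PLG+EACA, 1115 higher and 3344 lower with PLG+EACA+RNase, and 835 higher between the treatments, from fewer genes tested. Without a filter, 3306 were higher with PLG+EACA+RNase and 636 lower between the treatments. With only the 2 groups compared, 0 members were higher and 1 lower (Cebpd) between the treatments, with 425 genes higher and 310 lower, and Pparg was called higher with PLG+EACA+RNase (adjusted p = 0.0369 in limma). Pparg with PLG+EACA was 0.0039 with a pseudocount of 1 and 0.019 with voom on recovered reads. Leaving out 1 library gave -0.20 to 0.23 for Pparg and -0.13 to 0.23 for Maf with PLG+EACA. Between the treatments it gave 0 to 2 members higher, 1 to 3 lower, 569 to 1922 genes higher and 423 to 1306 lower, and the cause was not tested. Same-numbered libraries had deviations correlated from -0.18 to 0.33 over 12 pairs, and differently numbered ones from -0.34 to 0.12. The highest values were those of replicates 4 (0.33) and replicates 2 (0.19) of the 2 treatments. The labels do not say whether the numbers pair cultures, so they were not taken as pairs. With the number as a replicate block, 2 members were lower between the treatments, with Spi1 added (adjusted p = 0.0357 in limma).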
